A study of Mus musculus with 32 samples.

Results

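Loss of PPARγ in immature dendritic cells (iDCs) that had been given the PPARγ agonist rosiglitazone (RSG) was examined on 8 of the 32 arrays of the series. The 8 arrays were chosen by their labels alone, as those with cell type iDC and treatment RSG. Of these, 4 came from PPARg +/-LysCre mice (mice 1 to 4, called +/- mice from here on) and 4 from PPARg fl/-LysCre mice (mice 5 to 8, called fl/- mice). All mice were C57Bl/6, carried the LysCre transgene and had a Pparg allele that was not intact, so that the +/- mice kept 1 intact allele and the fl/- mice had in its place an allele flanked by loxP sites. LysCre expresses the Cre recombinase from the lysozyme locus, which is active in myeloid cells. How completely the allele had been removed from these iDCs was not measured here. Bone marrow cells were cultured for 9 days with 20 ng/ml GM-CSF and 20 ng/ml IL-4, and with 1 μM RSG. The same mice also gave vehicle-treated iDCs (DMSO:ethanol) and IL-4-treated macrophages grown with 20 ng/ml M-CSF, with vehicle or RSG, and these served for comparison. The mouse ages are not given in the sources used here.

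PPARγ is a nuclear receptor that binds DNA as a heterodimer with RXR at paired AGGTCA elements and, once a ligand such as RSG is bound, raises the transcription of genes of fatty acid uptake, storage and oxidation. In dendritic cells grown with GM-CSF and IL-4 the receptor is abundant, and its ligands are known to change lipid handling, the presentation of lipid antigens and the release of cytokines. The comparison of the genotypes under RSG asks which transcripts of iDCs differ when the ligand is present and the receptor is, by the labels, lost.

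Levels are log2 of the normalised signal of a probe, and differences are fl/- minus +/-, so that 1 is a 2-fold higher signal in fl/- cells. A probe was detected on an array where its signal was at least 3 times its noise (S/N), and was called where the Benjamini-Hochberg adjusted p was under 0.05 and the difference at least 1.5-fold. Of the 16620 probes tested, 167 could be given a gene symbol (166 genes). Neither Pparg nor any member of the marker lists for dendritic cells, macrophages, mast cells, lymphocytes and stromal cells was among these, so that the targeted gene, and the cell type against those markers, were not analysed here. In RNA of whole cultures, fewer cells of a type and less RNA per cell cannot be told apart.

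The 8 arrays had 13595 (mouse 5) to 16683 (mouse 8) detected probes, and the mean of the fl/- arrays minus that of the +/- arrays was -207.75 (exact two-sided permutation test, p = 0.857, where 0.0286 is the smallest value that 4 mice against 4 allow). Across probes, Pearson's r was 0.943 to 0.981 between arrays of a genotype and 0.937 to 0.970 between genotypes. The arrays were scanned on 4 days with 2 mice each, and every day held 1 genotype, so scan day and genotype cannot be told apart for the comparison of the genotypes.

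Mouse 5 stood apart from the other fl/- mice. Each mouse was placed between the mean of the other +/- mice (0) and that of the other fl/- mice (1). The 200 probes used for a mouse were chosen in the vehicle-treated iDCs of the other 7 mice. The scale thus differs between mice, and for mice 6, 7 and 8 the mean of the other fl/- mice includes mouse 5. The RSG-treated iDCs of the +/- mice lay at -0.09, -0.14, 0.12 and 0.27, those of mice 6, 7 and 8 at 1.30, 1.60 and 0.88, and those of mouse 5 at -0.0036. Its array thus lay among the +/- mice on probes that its own values had not chosen. In its response to RSG it lay between the genotypes. On the 513 probes called as raised by RSG in +/- iDCs, whose values chose them, the median of RSG minus vehicle was 1.03 to 1.14 in +/- mice, 0.554 in mouse 5 and 0.226 to 0.395 in mice 6 to 8. On the 486 lowered ones it was -1.19 to -1.01, -0.693 and -0.398 to -0.237. For some genes below, such as Eraf and H2-Q8, mouse 5 lay with the fl/- mice. The results on the genotype are therefore given with and without this mouse. Since mouse 5 is left out for its expression in these same data, calls and adjusted p-values without it are optimistic.

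With all 8 mice, 1106 of 16620 probes were called (6.65%), of which 546 were higher (3.29%) and 560 lower (3.37%) in fl/- iDCs. At an unadjusted p under 0.05 there were 4685, and the median difference over all tested probes was -0.03. Without mouse 5 there were 2654 calls (16%), 1492 higher (8.98%) and 1162 lower (6.99%), and under median scaling 1324 higher and 1489 lower. Of the 1106 probes, 1069 were called in the same direction without mouse 5 (96.7% of the first list and 40.3% of the second), and none in the opposite one. No other mouse raised the count when left out. It was 458, 218, 424 and 613 without mice 1, 2, 3 and 4, and 367, 263 and 714 without mice 6, 7 and 8. When the spread was estimated from these 8 arrays alone in place of all 16 iDC arrays, 46 probes were called with all mice and 2442 without mouse 5.

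**Figure D1:**
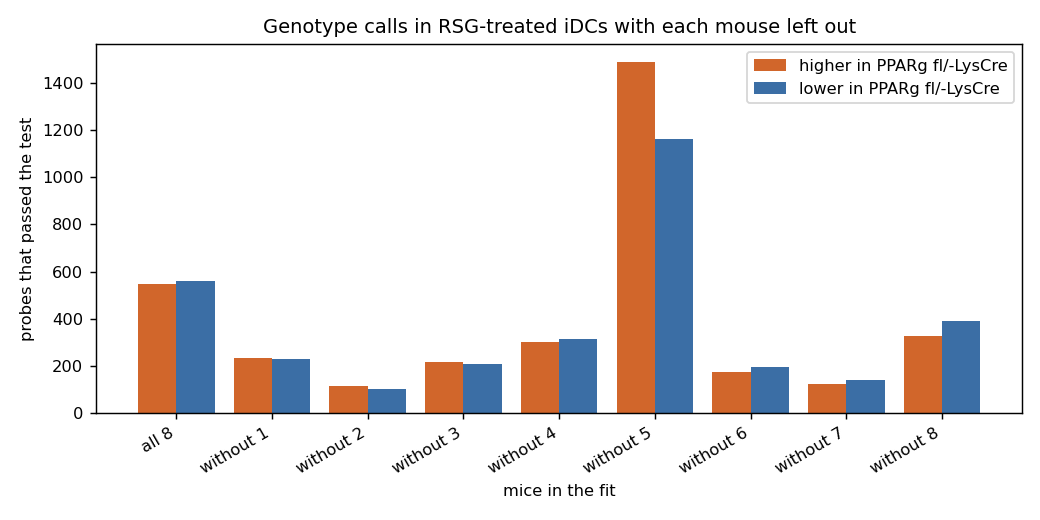
Bars give the number of probes called in RSG-treated iDCs, higher (orange) or lower (blue) in PPARg fl/-LysCre cells, with all 8 mice and with each mouse left out in turn. The pair of bars without mouse 5 (1492 and 1162) stands above the pair for all 8 mice (546 and 560), and each other pair stands below it.

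Most differences were moderate. The median fold of the called probes was 2.01, and 555 probes differed by at least 2-fold (324 higher, 231 lower). At least 4-fold differences were found for 72 higher and 53 lower probes, and at least 8-fold ones for 19 and 10. Without mouse 5 these counts were 171 and 73 at 4-fold, and 41 and 27 at 8-fold. The balance of higher and lower calls was relative to the scaling, since median scaling of each array gave 373 higher and 1165 lower calls and moved the median of all tested probes to -0.16.

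Groups of 4 values that did not overlap were found for 2534 of the tested probes (15.2%), and 425 of the higher and 463 of the lower calls were among them. Without mouse 5, 5741 probes had groups that did not overlap (34.5%), 1421 of the higher and 1109 of the lower calls among them. Of the tested probes, 18 were detected in every fl/- mouse and in no +/- mouse, and 27 in every +/- mouse and in no fl/- mouse, some of which are also counted above. For such probes the fold was set against the listed value or, where that was lower, the lowest signal among detected probes. An undetected probe can be as bright as its own detection limit, which can lie above both, so this fold is no strict lower bound. It reached 6.11-fold for the first kind (median 2.47) and 11.3-fold for the second (median 3.23), and 7 and 16 of them were called. The calls were not confined to probes near the limit of detection, since among the 11486 probes detected on all 8 arrays 824 (7.17%) were called.

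On the probes called without mouse 5, the mouse itself can be described, since its values had not chosen them. Mice 6 to 8 and the +/- mice had, which widens the distance between these. For the 1492 probes that were higher in mice 6 to 8, the median difference from the +/- mean was 1.15 in those mice and 0.155 in mouse 5. For the 1162 lower probes it was -0.893 and -0.25. Mouse 5 lay beyond the range of the +/- mice, on the side of the fl/- mice, for 560 of the higher (37.5%) and 633 of the lower probes (54.5%), and it reached the range of mice 6 to 8 for 127 (8.51%) and 183 (15.7%). Mice 6, 7 and 8 were each described in the same way, on probes called without that mouse and mouse 5. For the higher probes the median difference from the +/- mean was 1.03, 1.18 and 0.998 in the mouse left out, and 0.188, 0.161 and 0.185 in mouse 5 on the same probes. For the lower probes it was -0.772, -0.969 and -0.645, against -0.25, -0.248 and -0.247 in mouse 5. The mouse left out lay beyond the +/- range for 88.4% to 96.1% of these probes, and mouse 5 for 39.4% to 56.9%.

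Of the 167 named probes, 15 were called with all mice (8.98%, against 6.65% of all tested probes), 6 higher and 9 lower. Without mouse 5, 26 were called (15.6%, against 16%), 12 higher and 14 lower, and 14 of the 15 were among them. The share of named probes was thus near that of all probes in the fit without mouse 5.

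Promoter sequences are shown for 3 called genes, so that the elements a PPARγ heterodimer is known to bind can be looked for. Sgms2, lower in fl/- iDCs, and C130050O18Rik, higher, are shown because they hold the hexamer, and Lhx2, lower, as one that does not. They are RefSeq sequences of build GRCm38.p6, 5′ to 3′ on the strand of the gene, from 250 bases before to 50 after its start, with AGGTCA on either strand (TGACCT on the strand shown) in capitals.
Lhx2 (chr2:38339031-38339330, + strand): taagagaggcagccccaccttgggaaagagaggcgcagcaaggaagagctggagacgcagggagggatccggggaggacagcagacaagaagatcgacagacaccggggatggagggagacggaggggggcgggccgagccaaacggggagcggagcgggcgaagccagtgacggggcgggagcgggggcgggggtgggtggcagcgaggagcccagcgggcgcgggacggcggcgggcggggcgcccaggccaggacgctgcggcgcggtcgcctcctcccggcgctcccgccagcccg
Sgms2 (chr3:131491394-131491693, - strand): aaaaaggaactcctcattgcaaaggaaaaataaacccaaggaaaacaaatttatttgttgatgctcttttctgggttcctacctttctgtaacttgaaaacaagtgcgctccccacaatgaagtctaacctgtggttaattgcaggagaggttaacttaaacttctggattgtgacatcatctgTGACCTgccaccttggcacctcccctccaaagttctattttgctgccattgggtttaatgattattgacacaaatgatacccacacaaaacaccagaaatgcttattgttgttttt
C130050O18Rik (chr5:139405034-139405333, + strand): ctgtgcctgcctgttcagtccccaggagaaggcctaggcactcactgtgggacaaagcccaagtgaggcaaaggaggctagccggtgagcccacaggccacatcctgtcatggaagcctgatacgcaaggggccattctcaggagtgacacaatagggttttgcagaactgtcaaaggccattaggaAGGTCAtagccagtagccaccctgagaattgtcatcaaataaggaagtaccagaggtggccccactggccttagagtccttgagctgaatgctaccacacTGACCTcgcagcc

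The Lhx2 window, which is 1 of the 2 that RefSeq gives for this gene, holds no AGGTCA, the Sgms2 window holds 1 (2 of its 6 windows hold one) and the C130050O18Rik window holds 2. Among all 32851 promoters of this length, 5340 hold the hexamer on either strand (16.3%), and 13 hold 2 direct copies of it that are 1 base apart (0.0396%), each match of which also counts for the hexamer. Of the 33 genes chosen by the naming rule, 24 had promoters in the table, and of their 36 promoters 3, all of Sgms2 and C130050O18Rik, held AGGTCA, none the direct repeat and 1, of Nlrp3, the STAT6-type element, TTC and GAA with any 4 bases between them (6.95% of all promoters). A match is a description of letters in this window, and its absence says nothing about the factor.

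Of the 57 genes of the transcription factor list 4 were measured, with 5 probes. Lhx2 and 1 probe of Cebpb were lower in fl/- iDCs, where 3.37% of all tested probes were, and 4 genes are too few to describe the list. Lhx2, a LIM homeodomain factor known from hair follicle and forebrain development, measured 11.42, 11.74, 12.43 and 11.64 in the +/- mice and 11.31, 8.92, 7.49 and 8.71 in mice 5, 6, 7 and 8. The groups did not overlap, but mouse 5 lay just under the lowest +/- mouse, and in mouse 7 the probe was not detected. The difference was -2.70 ± 0.65 (SE, n = 4 against 4; adjusted p = 0.0241), and -3.43 ± 0.50 (adjusted p = 0.000658) without mouse 5. In vehicle-treated iDCs the probe was not detected in any of the 8 mice, and in RSG-treated macrophages only in mouse 4. Its level was thus measured in RSG-treated iDCs of 7 mice, highest in the +/- mice and in mouse 5.

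Cebpb, a bZIP factor of myeloid cells and of fat cell differentiation, had 2 probes. The brighter measured 20.33, 20.45, 20.42 and 20.29 in +/- mice and 20.09, 19.65, 19.38 and 19.34 in fl/- mice (mice 5 to 8), and differed by -0.76 ± 0.20 (adjusted p = 0.0351). The groups did not overlap, and mouse 5 was again the fl/- mouse nearest to the +/- mice. The dimmer probe differed by -0.49 ± 0.21 and was not called (adjusted p = 0.143), with mouse 5 at 16.18 inside the +/- range of 15.88 to 16.30. Without mouse 5 both probes were called, at -0.92 ± 0.10 (adjusted p = 0.000155) and -0.69 ± 0.16 (adjusted p = 0.00962). With all mice the brighter probe was not called on the assay-normalized signal.

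The other 2 measured members of the transcription factor list were not called with or without mouse 5. Zbtb18, a zinc finger repressor, differed by -0.02 ± 0.11 (adjusted p = 0.913), and Jun, a subunit of AP-1, by 0.17 ± 0.13 (adjusted p = 0.439; 0.68 and 0.336 without mouse 5). The median difference over the 5 probes of this list was -0.49, beside -0.03 over all tested probes. Nothing is read from this median, since the probes are few and the list was chosen with earlier results of these data known.

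Of the list of PPARγ targets and lipid handling genes (68 genes), 4 were measured, and Sgms2 was called. Sgms2, the sphingomyelin synthase of the plasma membrane, measured 14.21, 14.06, 13.79 and 14.03 in +/- mice and 13.92, 13.28, 13.14 and 13.04 in mice 5 to 8. Mouse 5 lay within the +/- range and the other fl/- mice below it. The difference was -0.68 ± 0.18 (adjusted p = 0.0304), and -0.87 ± 0.13 (adjusted p = 0.00077) without mouse 5. With all mice the call was lost with all 32 arrays in the fit (adjusted p = 0.0568) and on the assay-normalized signal. Paqr3, a Golgi protein that tethers the kinase Raf-1, measured 11.21, 11.30, 11.12 and 11.85 in +/- mice and 11.12, 10.57, 10.41 and 11.03 in mice 5 to 8, and the groups met at the level of mice 3 and 5. It was called only without mouse 5 (-0.70 ± 0.21, adjusted p = 0.0292; -0.59 ± 0.20, adjusted p = 0.0711, with it).

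The remaining 2 lipid list members were not called in either fit. Acyp2, an acylphosphatase, differed by -0.51 ± 0.27 (adjusted p = 0.236) and by -0.72 ± 0.26 (adjusted p = 0.0604) without mouse 5. Epdr1, an ependymin-related lysosomal protein, was detected in 2 +/- mice and 1 fl/- mouse and differed by -0.48 ± 0.48 (adjusted p = 0.548; 0.752 without mouse 5). The median of the 4 was -0.55, beside -0.03 over all tested probes. Nothing is read from this median, since all 4 are also among the genes of particular interest in this series. Those were chosen with earlier results of these data known. Of the 4, 1 was called lower, or 2 without mouse 5, where 3.37% and 6.99% of all tested probes were, and 4 of 68 genes are too few to describe the list.

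H2-Q8, a class I major histocompatibility gene of the Qa region, was the called one of the 2 measured genes, of 45, of the antigen presentation list. Of all tested probes, 3.29% were called higher (8.98% without mouse 5), and 2 genes are too few to describe the list. H2-Q8 measured 15.22, 15.61, 15.74 and 16.00 in +/- mice and 16.18, 16.26, 16.72 and 16.34 in mice 5 to 8. Every fl/- mouse, mouse 5 included, was above every +/- mouse. The difference was 0.73 ± 0.19 (adjusted p = 0.0282), and 0.80 ± 0.19 (adjusted p = 0.0107) without mouse 5. With all mice the call was lost under median scaling (0.54, adjusted p = 0.0635), from the authors' ratios (adjusted p = 0.0633) and with all 32 arrays in the fit (adjusted p = 0.477). H2-Q genes are near-identical copies, and the probe may read several of them. The other measured member, H2-Q7, differed by 0.37 ± 0.12 (adjusted p = 0.0725), and without mouse 5 its 0.43 ± 0.12 (adjusted p = 0.0243) was under the 1.5-fold limit.

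Of the 72 genes of the cytokine, chemokine and sensor list 3 were measured, of which 0 were called with all mice, where 6.65% of all tested probes were, so that nothing is read from this count. Tlr7, the endosomal sensor of single-stranded RNA, measured 11.98, 11.53, 11.43 and 11.31 in +/- mice and 11.64, 10.61, 11.32 and 10.69 in mice 5 to 8. The groups overlapped, with mouse 5 inside the +/- range, and the probe was called only without that mouse (-0.69 ± 0.20, adjusted p = 0.0271; -0.50 ± 0.25, adjusted p = 0.212, with it). Nlrp3, the inflammasome sensor, differed by -0.28 ± 0.24 (adjusted p = 0.465), and Tnfsf13 (APRIL), a survival factor of B cells, by 0.22 ± 0.11 (adjusted p = 0.201), and neither was called without mouse 5 (adjusted p = 0.316 and 0.244).

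Ramp3, Ramp1 and Sfrp4 were the measured members of the Wnt, BMP and peptide signalling list (3 of 39 genes). Ramp3, a subunit of adrenomedullin and calcitonin family receptors, measured 13.01, 12.38, 12.10 and 11.97 in +/- mice and 12.36, 13.41, 13.70 and 12.83 in mice 5 to 8. The groups overlapped, also without mouse 5, and it was called only in that fit (0.95 ± 0.27, adjusted p = 0.0223; 0.71 ± 0.28, adjusted p = 0.121, with all mice). Ramp1, of the same family, differed by -0.65 ± 0.44 (adjusted p = 0.357; 0.404 without mouse 5). Sfrp4, a secreted Wnt antagonist, was detected in mouse 1 alone of the 8 (9.62). Ear1, an eosinophil-associated ribonuclease of a family of near-identical copies and the measured member of both the alternative activation and the granulocyte list, differed by -0.63 ± 0.31 (adjusted p = 0.202; 0.31 without mouse 5).

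Of the 14 genes of the erythroid list 2 were measured, and their differences did not have the same sign. Eraf, the chaperone of free alpha-haemoglobin, measured 9.56, 9.33, 10.41 and 9.81 in +/- mice, and was not detected in any fl/- mouse (listed at 6.79, 6.31, 6.78 and 6.03). All 4 fl/- values, that of mouse 5 too, were below every +/- value. Reckoned as above for undetected values, the level in +/- mice was 9.13-fold higher, which is no strict lower bound. The fitted difference was -3.30 ± 0.71 (adjusted p = 0.0157), and -3.40 ± 0.78 (adjusted p = 0.00862) without mouse 5. Hba-a1, an alpha-globin gene whose near-identical copy the probe may also read, went the other way without mouse 5. It was detected in mice 3 and 4 (10.31 and 9.63) and in mice 6, 7 and 8 (11.00, 10.77 and 10.37), and not in mice 1, 2 and 5. It was called only without mouse 5 (1.55 ± 0.52, adjusted p = 0.0479; 0.68 ± 0.78, adjusted p = 0.606, with all mice). The fits of Hba-a1 take noise values of mice where it was not detected as levels, so the size of its difference is not measured. The part of erythroid cells in other differences was not tested.

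**Figure D2:**
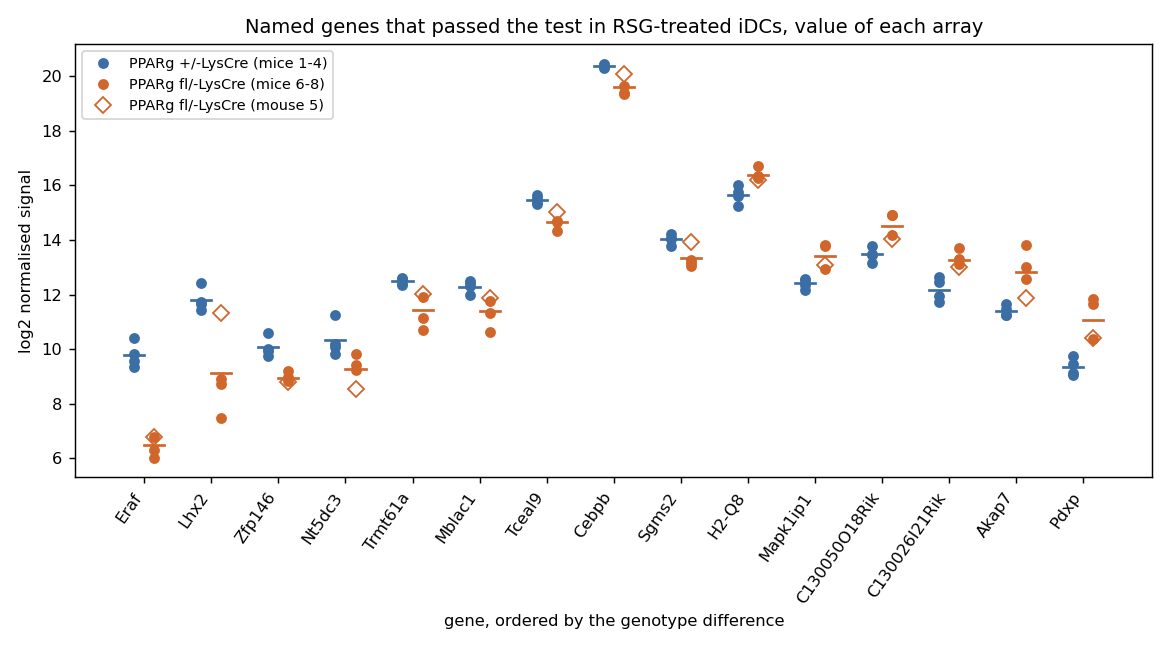
Points give the log2 normalised signal of each RSG-treated iDC array for the 15 called named genes, ordered from the most lowered (Eraf, -3.30) to the most raised in PPARg fl/-LysCre cells (Pdxp, 1.71). Lines are group means and open diamonds mouse 5, which lies with the +/- mice for Sgms2 (13.92) and beside the other fl/- mice for Eraf (6.79) and Zfp146 (8.80).

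The 2 highest rises among named genes were those of Pdxp and Akap7. Pdxp, a phosphatase of pyridoxal phosphate, the active form of vitamin B6, measured 9.07, 9.46, 9.14 and 9.73 in +/- mice and 10.40, 11.65, 11.83 and 10.36 in mice 5 to 8. Akap7, which anchors protein kinase A, measured 11.24, 11.24, 11.46 and 11.65 in +/- mice and 11.89, 13.02, 13.80 and 12.57 in mice 5 to 8. For both, every fl/- mouse was above every +/- mouse, and for Pdxp mouse 8 was as low as mouse 5. Pdxp differed by 1.71 ± 0.40 (adjusted p = 0.0203) and Akap7 by 1.42 ± 0.34 (adjusted p = 0.0244), and without mouse 5 by 1.93 ± 0.43 (adjusted p = 0.00729) and 1.73 ± 0.30 (adjusted p = 0.00181).

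A further 3 named genes were higher in fl/- iDCs, and none of their groups overlapped. C130026I21Rik measured 11.71, 11.93, 12.63 and 12.46 in +/- mice and 13.01, 13.10, 13.70 and 13.29 in mice 5 to 8 (1.09 ± 0.23, adjusted p = 0.0134). C130050O18Rik measured 13.46, 13.49, 13.15 and 13.79, and 14.02, 14.92, 14.91 and 14.17 (1.04 ± 0.21, adjusted p = 0.0132). Mapk1ip1, which encodes a protein that binds the MAP kinase ERK2, measured 12.58, 12.34, 12.16 and 12.55, and 13.08, 13.77, 13.82 and 12.94 (0.99 ± 0.21, adjusted p = 0.0145). Mouse 5 was above every +/- mouse for all 3, and all were called without it, with differences of 1.18 ± 0.22, 1.20 ± 0.20 and 1.10 ± 0.22 (adjusted p = 0.00298, 0.00149 and 0.00363).

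Trmt61a and Mblac1 are outside the gene lists and were lower in fl/- iDCs. Trmt61a, the catalytic subunit of the methyltransferase that makes 1-methyladenosine in tRNA, measured 12.38, 12.56, 12.61 and 12.36 in +/- mice and 12.01, 11.15, 10.71 and 11.90 in mice 5 to 8 (-1.04 ± 0.24, adjusted p = 0.0203). Mblac1, a metallo-beta-lactamase domain nuclease of histone pre-mRNA, measured 11.97, 12.42, 12.30 and 12.48, and 11.87, 11.31, 10.62 and 11.75 (-0.90 ± 0.22, adjusted p = 0.0234). In both, mouse 7 was lowest and mouse 5 the nearest to the +/- mice, and without mouse 5 they differed by -1.22 ± 0.24 (adjusted p = 0.00358) and -1.07 ± 0.21 (adjusted p = 0.00413).

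Tceal9, of a family related to the transcription elongation factor TFIIS, was lower with little spread. It measured 15.65, 15.35, 15.52 and 15.32 in +/- mice and 15.02, 14.69, 14.31 and 14.65 in mice 5 to 8. The groups did not overlap, and the difference was -0.79 ± 0.15 (adjusted p = 0.00912), and -0.91 ± 0.12 (adjusted p = 0.000374) without mouse 5. Zfp146, a zinc finger protein, measured 9.74, 10.60, 9.94 and 10.02, and 8.80, 8.83, 8.96 (not detected) and 9.19 (-1.13 ± 0.29, adjusted p = 0.03; -1.08 ± 0.30, adjusted p = 0.0218, without mouse 5). For this gene mouse 5 was the lowest of all. Nt5dc3, a protein with a 5′-nucleotidase domain, measured 9.83, 10.20, 11.26 and 10.08, and 8.53 (not detected), 9.43, 9.25 and 9.84, with mouse 8 above mouse 1. Its -1.08 ± 0.32 (adjusted p = 0.0495) was the one call among the 15 lost without mouse 5 (-0.84 ± 0.32, adjusted p = 0.0784), and it was also lost with the mouse as a random replicate block (adjusted p = 0.0509) or the scan day as one (adjusted p = 0.0532).

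The calls of these 15 genes rested on most of the mice. No difference changed sign over the 8 fits that each left out 1 mouse. Where groups did not overlap the sign could not change, so this says nothing about those directions. Tceal9 was the one gene called in all 8 fits (-0.91 to -0.67, adjusted p = 0.000374 to 0.0412). C130026I21Rik and Eraf were called in 6 of the 8 fits, Lhx2, Cebpb and Sgms2 in 1 each, the one without mouse 5, and Nt5dc3 in 0. Of the 15, 6, 1, 2 and 7 were called without mice 1, 2, 3 and 4, 14 without mouse 5, and 3, 2 and 10 without mice 6, 7 and 8. Across these fits the adjusted p of Lhx2 ran from 0.000658 to 0.0953, that of Cebpb from 0.000155 to 0.124 and that of Sgms2 from 0.00077 to 0.119. With the spread from the 8 arrays alone, Eraf was the one gene of the 15 still called, without the filter on detection 5 were, and with the methods' t-test 15 were before and 0 after adjustment by Benjamini-Hochberg.

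Leaving out mouse 5 added 12 named probes, among them Paqr3, Tlr7, Ramp3, Hba-a1 and the dimmer Cebpb probe described above. Lst1, a leukocyte transcript of the class III region of the histocompatibility complex, measured 10.96, 10.38, 10.54 and 11.28 in +/- mice and 11.78, 12.41 and 11.93 in mice 6, 7 and 8, with mouse 5 not detected (1.25 ± 0.27, adjusted p = 0.00583). Notum, the carboxylesterase that inactivates Wnt proteins, measured 8.96, 9.16, 8.66 and 9.26, and 9.88, 9.61 and 10.02, again with mouse 5 not detected (0.82 ± 0.18, adjusted p = 0.00729). With all mice their differences were 0.77 ± 0.44 and 0.25 ± 0.45, and neither was called.

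Alkbh5, the demethylase of N6-methyladenosine in RNA, measured 13.40, 13.33, 13.25 and 13.56 in +/- mice and 13.65, 14.51, 14.72 and 13.52 in mice 5 to 8 (0.86 ± 0.27, adjusted p = 0.0344, without mouse 5; adjusted p = 0.0942 with it). Trim34a, a tripartite motif protein with close copies in its gene cluster, measured 10.89, 10.67, 10.97 and 11.12, and 10.99, 11.39, 11.67 and 12.04 (0.79 ± 0.17, adjusted p = 0.0068, without mouse 5; adjusted p = 0.0957 with it). Tbc1d16, a GTPase-activating protein of Rab GTPases, was lower, at 12.15, 12.02, 12.47 and 12.07, and 12.33, 11.54, 11.68 and 11.11 (-0.73 ± 0.16, adjusted p = 0.0059, without mouse 5; adjusted p = 0.153 with it). Mouse 5 lay inside the +/- range for Trim34a and Tbc1d16 and just above it for Alkbh5, for which mouse 8 lay inside it.

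The same genotype difference was measured in vehicle-treated iDCs and in RSG-treated macrophages, on other arrays of the same mice and scan days. It gave 471 calls in vehicle-treated iDCs (2.83%; 2029, or 12.2%, without mouse 5) and 1971 in RSG-treated macrophages (11.9%; 3362, or 20.2%, without mouse 5). Of the 1106 probes called in RSG-treated iDCs, 128 were called in the same direction in vehicle-treated iDCs (11.6% of the 1106 and 27.2% of the 471) and 3 in the opposite one. In RSG-treated macrophages 245 were called in the same direction (22.1% and 12.4%) and 60 in the opposite one, and 25 had the same direction in all 3 settings. Without mouse 5, 1163 probes were shared with vehicle-treated iDCs (43.8% and 57.3%) and 885 with RSG-treated macrophages (33.3% and 26.3%), with 14 and 191 in opposite directions.

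A call in one setting and not in another is no test of a difference between them. Tested directly, the genotype difference of iDCs under RSG differed from that under vehicle for 73 probes (0.439%; 210, or 1.26%, without mouse 5), of which 40 had been called under RSG. Under median scaling there were 28 (5 higher and 23 lower, against 34 and 39), with the mouse as a random replicate block 270, and with the scan day as a fixed block 44. Leaving out a mouse other than mouse 5 left 1 (without mice 2, 3, 6 or 7) to 15 calls (without mouse 8). Of the 73, 1 had a gene name, 5830415G21Rik.

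5830415G21Rik measured 11.40, 11.10, 11.15 and 11.43 in RSG-treated +/- iDCs and 11.88, 11.39, 11.53 and 11.58 in those of mice 5 to 8, and with vehicle 12.83, 12.77, 12.46 and 12.88, and 12.30, 11.80, 11.44 and 11.59. With vehicle every fl/- mouse was below every +/- mouse, and with RSG the groups overlapped. The genotype difference was 0.33 ± 0.18 under RSG (adjusted p = 0.245) and -0.95 ± 0.18 under vehicle (adjusted p = 0.0171; -1.12 ± 0.13, adjusted p = 0.000297, without mouse 5), and the difference between them was 1.28 ± 0.25 (adjusted p = 0.0447; 0.00757 without mouse 5). Lhx2 was not compared between the treatments, because it was not detected with vehicle. Gask1b, a Golgi-associated kinase, was detected in 2 mice of each genotype under RSG, and with vehicle in 4 +/- mice and 1 fl/- mouse. It was called neither under RSG (0.42 ± 0.47) nor for the difference between the treatments (adjusted p = 0.195; 0.0954 without mouse 5).

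Against RSG-treated macrophages, the genotype difference of RSG-treated iDCs differed for 1230 probes (7.4%; 2868, or 17.3%, without mouse 5), of which 323 had been called in iDCs. It was higher in iDCs for 492 and lower for 738, and under median scaling for 200 and 1081. When only the 16 RSG arrays entered the fit, 774 were called, and leaving out a mouse other than mouse 5 left 429 (without mouse 7) to 868 (without mouse 8). Named genes that passed were in part those called in iDCs and in part genes whose genotype difference lay in macrophages.

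**Figure D3:**
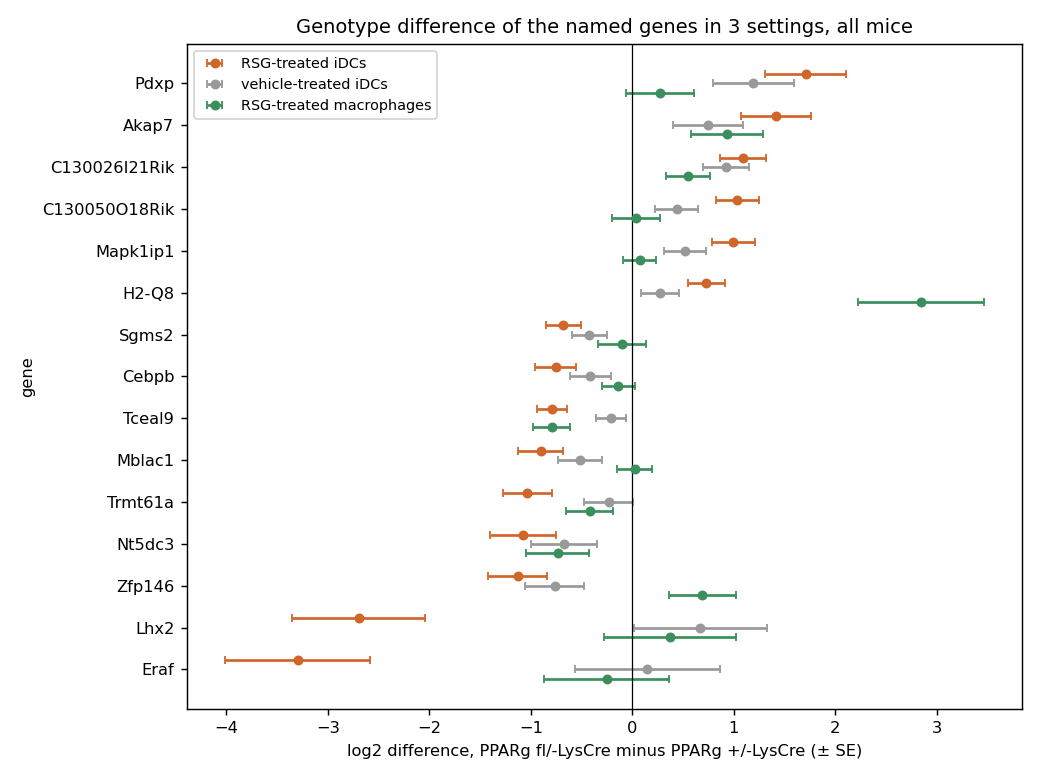
Points give the log2 difference of the 15 called named genes, PPARg fl/-LysCre minus PPARg +/-LysCre, with all mice in RSG-treated iDCs, vehicle-treated iDCs and RSG-treated macrophages, and bars are standard errors. Tceal9 lies at about the same difference in RSG-treated macrophages (-0.80) and RSG-treated iDCs (-0.79). Outside RSG-treated iDCs the points of Lhx2 and Eraf lie at background, as Lhx2 was detected on 1 of those arrays and Eraf on 3, and H2-Q8 was not detected in +/- macrophages.

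Zfp146, Mblac1 and Mapk1ip1 differed between the cell types. Zfp146 was lower in fl/- iDCs and not called in macrophages (0.69 ± 0.33), with a difference of -1.82 ± 0.46 (adjusted p = 0.0148), and Mblac1 (0.02 ± 0.18 in macrophages) and Mapk1ip1 (0.07 ± 0.16) also passed the test, at -0.93 ± 0.25 (adjusted p = 0.0194) and 0.92 ± 0.23 (adjusted p = 0.0126). These 3 passed it without mouse 5 too (adjusted p = 0.0169, 0.00218 and 0.00324). Lhx2 was detected in 1 of the 8 macrophage arrays (mouse 4) and Eraf in none, so that a genotype difference in macrophages was not measured for them and no comparison between the cell types is drawn.

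The reverse was found for genes with a genotype difference in RSG-treated macrophages. Ear1 measured 19.21, 19.18, 19.53 and 19.23 in macrophages of +/- mice and 17.19, 15.84, 15.08 and 16.57 in those of mice 5 to 8, a difference of -3.11 ± 0.44 (adjusted p = 4.22e-05; 6.11e-08 without mouse 5), and 2.48 ± 0.62 lay between this and the difference in iDCs (adjusted p = 0.0127; 7.57e-05). Paqr3 and Zbtb18 were higher in fl/- macrophages (1.19 ± 0.32, adjusted p = 0.0115, and 1.26 ± 0.22, adjusted p = 0.000338), and their differences in iDCs were lower by -1.78 ± 0.46 (adjusted p = 0.015) and -1.28 ± 0.31 (adjusted p = 0.00992). Tlr7 was also higher there (0.70 ± 0.23, adjusted p = 0.0314; -1.20 ± 0.32 between the cell types, adjusted p = 0.0193). Tnfsf13 was under the 1.5-fold limit in macrophages (-0.46 ± 0.12, adjusted p = 0.00902) and passed the test between the cell types (0.68 ± 0.17, adjusted p = 0.013). Without mouse 5 the latter test gave adjusted p = 4.21e-05 for Paqr3, 5.09e-06 for Zbtb18, 0.0011 for Tlr7 and 0.00509 for Tnfsf13.

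For H2-Q8 the comparison turned on mouse 5. In RSG-treated macrophages it measured 9.64 in mouse 5 and 13.15, 14.20 and 13.25 in mice 6, 7 and 8, and was not detected in any +/- mouse (9.08, 9.37, 10.67 and 9.73). In macrophages mouse 5 lay with the +/- mice, whereas in RSG-treated iDCs it lay above them all. The level in fl/- macrophages was 7.21-fold the values listed for +/- macrophages (adjusted p = 0.00258), and 14.1-fold without mouse 5 (adjusted p = 6.41e-09). Since the probe was not detected in +/- macrophages, neither fold is a strict lower bound. The test between the cell types did not pass with all mice (adjusted p = 0.136) and passed without mouse 5 (adjusted p = 2.65e-05), with the genotype difference the higher one in macrophages. Tceal9 was lower in both cell types (-0.80 ± 0.18 in macrophages, adjusted p = 0.00394; -0.91 ± 0.18 without mouse 5), with 0.0048 ± 0.26 between them.

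Some probes that are listed by gene model alone had larger rises in RSG-treated fl/- iDCs than any called named gene. The gene models mCG68209.2 and mCG22120.1 had the highest rises among called unnamed probes whose groups did not overlap. The first measured 9.68, 10.34, 11.18 and 11.79 in +/- mice and 13.27, 16.47, 17.64 and 17.44 in mice 5 to 8 (5.46 ± 0.92, adjusted p = 0.00686). The second measured 10.06, 10.51, 11.38 and 11.87, and 12.93, 16.15, 16.96 and 16.96 (4.80 ± 0.89, adjusted p = 0.00927).

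Both probes were brighter with vehicle, a change called in +/- iDCs (RSG minus vehicle -4.01 and -3.33, adjusted p = 0.01485 and 0.0343). It was not called in fl/- iDCs (-1.38 and -1.32, adjusted p = 0.659 and 0.663). Tested directly, a difference of the genotype effect between RSG and vehicle was called for neither (adjusted p = 0.508 and 0.639). In vehicle-treated iDCs mCG68209.2 measured 13.14 to 15.65 in +/- mice and 15.81 to 18.82 in fl/- mice, a genotype difference of 2.82 ± 0.92 that was called only when mouse 5 was left out (3.42 ± 0.62, adjusted p = 0.00317). Mouse 5 was the lowest fl/- mouse for both probes with RSG, yet above every +/- mouse, and without it the differences under RSG were 6.43 ± 0.62 and 5.74 ± 0.60.

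The largest fitted falls chosen in this way were those of mCG21883.1 and mCG7037.3. mCG21883.1 measured 12.61, 12.44, 12.53 and 11.39 in +/- mice, was detected in mouse 5 (9.78) and was not detected in mice 6, 7 and 8 (listed at 7.01, 6.78 and 6.15), with a fitted difference of -4.81 ± 0.61 (adjusted p = 0.00225). mCG7037.3 measured 11.77, 11.74, 12.69 and 11.89, and of the fl/- mice mouse 5 alone was detected (10.35), with a fitted difference of -3.77 ± 0.71 (adjusted p = 0.00978). Both fits take noise values of mice 6 to 8 as levels, so the size and the rank of these falls are not measured. Without mouse 5, the levels in +/- mice were 45-fold and 22.1-fold those in fl/- mice, reckoned as above for undetected values. These folds are no strict lower bounds, since an undetected probe can lie as high as its own detection limit. Neither probe was detected in vehicle-treated iDCs of any mouse, and in both mouse 5 lay between the +/- mice and the other fl/- mice.

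In RSG-treated macrophages mCG7037.3 measured 12.87 to 13.21 in +/- mice and 6.99 (mouse 7, not detected) to 10.43 in fl/- mice (-3.87 ± 0.64, adjusted p = 0.000241). mCG21883.1 was detected in 2 +/- macrophage arrays and in none of the fl/- ones, so that its genotype difference there was not compared with that in iDCs.

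**Figure D4:**
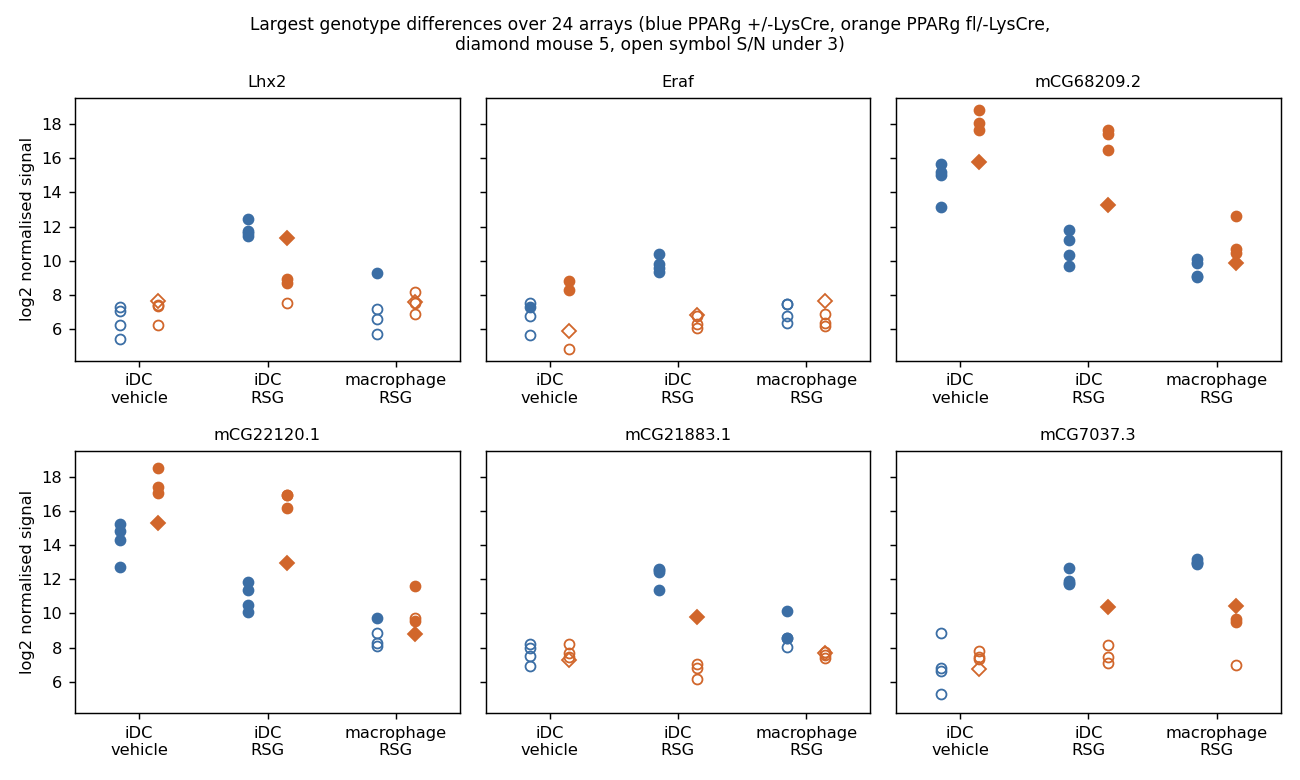
Points give the log2 normalised signal of Lhx2, Eraf and 4 unnamed probes on 24 arrays. Colors mark PPARg +/-LysCre (blue) and PPARg fl/-LysCre mice (orange, diamond for mouse 5), with open symbols where the S/N was under 3. The 4 had the largest fitted rises and falls among called unnamed probes whose groups did not overlap, and the rank of the falls is not measured. Lhx2, mCG21883.1 and mCG7037.3 are detected in iDCs with RSG and not with vehicle, and mouse 5 lies between the +/- mice (11.39 to 12.61 for mCG21883.1) and the other fl/- mice for the latter 2.

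Calls were spread over the range of signal. In 4 bins of 4155 tested probes by mean level, from the dimmest to the brightest, 4.57%, 7.85%, 8.01% and 6.19% were called with all mice, and 11.1%, 21.6%, 16.9% and 14.2% without mouse 5. The median standard error fell from 0.474 in the dimmest to 0.123 in the brightest bin, so that differences of the dimmest probes were the least precise.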

How the data were processed

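Digoxigenin-labeled cRNA of 8 mice was hybridised to 32 Applied Biosystems arrays of 1 color and read by chemiluminescence. The authors deposited per probe a background-corrected signal, its standard deviation, an assay-normalized signal, quality flags and the S/N, a score, with no scaling between arrays. Where S/N was 1 or less, the listed signal was nearly always the standard deviation itself, a level of noise. A second kind of table that the authors deposited holds ratios, which hold a signal over an array factor and over the median of its probe; 0.0112% of values lay over 0.01 (log2) from this reading. The paper's methods, written for Affymetrix arrays, name the median of each chip as the array factor, and do not describe the arrays used here. In RSG-treated iDCs the ratios gave 1540 calls and median scaling 1538. The number of arrays limits the precision.

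Signals were taken as log2 and quantile normalized over all 32 arrays. Probes detected (S/N of at least 3) on at least 3 of 4 arrays of a group (16620 of 33012) were fitted in limma 3.58.1 (R 4.3.3, lmFit and eBayes) with a mean per group, over the 16 iDC arrays or, across cell types, all 32, and p-values were adjusted over all tested probes by the Benjamini-Hochberg method. Single values were compared by exact permutation tests. Figures and sequences were prepared with Python 3.11.15, pandas 2.3.3 and matplotlib. Of the noncontrol probes, 325 (0.984%) were given a symbol, 311 by RefSeq accession, 6 by synonym (assembly GRCm38.p6) and 8 through supplementary tables.

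The genes named were every named probe called with all mice, up to 12 rises and 12 falls called without mouse 5, 15 genes of particular interest in this series, and the 2 largest rises and falls among unnamed called probes whose groups did not overlap. Jun, H2-Q7 and Ramp1 fall outside this rule and are named as measured members of the gene lists. Members and lists were chosen with earlier results of these data known. Interferon response and cell cycle lists had no member with a named probe. By their labels, arrays that share a number are of 1 mouse, and deviations of RSG- and vehicle-treated iDC arrays of a mouse correlated by 0.037 to 0.075 in +/- mice and by 0.271 to 0.549 in fl/- mice. The mouse was not a block in the reported fit.

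Alternatives covered the scaling (array medians, the authors' ratios), the filter on detection (absent or stricter), the fold limit (absent or 2-fold), an added offset (10th percentile of the signal), the t-test named in the methods, which arrays entered the fit, blocks for mouse or scan day, and single mice left out. Those on the assay-normalized signal, on quality flags over 5000 and on probes detected on all 16 iDC arrays were chosen after seeing the data.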

Additional observations from a re-analysis of the deposited data

Results flagged for a closer look

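The 4 values of a genotype were checked for a value that stands apart in 74 cases, and 3 were found. Chance alone would give about 1 in 20, so nothing is read from this number. All 3 concern mouse 5 among the RSG-treated fl/- iDCs. Hba-a1 and Notum were among the checked genes because they were called only without mouse 5, a choice that favors such a distance. The distance of mouse 5 from the next mouse was 0.833 of the spread of the 4 for Hba-a1 and 0.836 for Notum, where mouse 5 was lowest and not detected, and 0.967 for Nlrp3, where it was highest (9.55, against 9.15 to 9.16 in the other fl/- mice). The part of detection in these values was not tested.

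The genotype difference depended on the treatment in iDCs for 73 probes, and 5830415G21Rik was the named one (1.28). It depended on the cell type under RSG for 1230 probes. Among the genes described above, these were Lhx2 (-3.07), Eraf (-3.05), Zfp146 (-1.82), Paqr3 (-1.78), Zbtb18 (-1.28), Tlr7 (-1.20) and Mblac1 (-0.93), with lower differences in iDCs, and Ear1 (2.48), Mapk1ip1 (0.92) and Tnfsf13 (0.68), with higher ones. The values of Lhx2 and Eraf are no measured difference between the cell types, since Lhx2 was detected in 1 of the 8 macrophage arrays and Eraf in none.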

How the results depend on the processing

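For the genotype difference in RSG-treated iDCs, the 1106 calls changed to 407 without the filter on detection, 46 when only the 8 arrays entered the fit, 555 at a 2-fold limit, 1897 by the methods' t-test unadjusted and 1 after Benjamini-Hochberg adjustment (3971 at an unadjusted p under 0.05), and 218 (without mouse 2) to 2654 (without mouse 5) leaving out each mouse. Without mouse 5, the 2654 changed to 4132 with no fold threshold, 1387 at 2-fold and 1692 under the adjusted t-test, and 1936 to 2751 leaving out another mouse. For the difference between RSG and vehicle, the 73 changed to 28 by median scaling, 28 from the authors' ratios, 1 without the filter, 270 with the mouse as a random replicate block, 44 with the scan day as a fixed block, and 1 to 210 leaving out each mouse. For the difference between iDCs and macrophages, the 1230 changed to 711 without the filter, 774 from the 16 RSG arrays alone, 704 at 2-fold, and 429 to 2868 leaving out each mouse. Fewer arrays, more or fewer probes and a higher limit are part of these settings, and any other cause was not tested. With the replicate block the genotype difference in RSG-treated iDCs had 1203 calls (1064 shared), 2648 without mouse 5, and that between cell types 1810; the pairing changed no call of the named probes for the genotype difference in RSG-treated iDCs other than that of Nt5dc3, and named calls between the settings given in the text kept their side of the threshold (adjusted p = 0.00522 for 5830415G21Rik).

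The difference in detected probes ran from -671 to 358 and turned positive without mouse 1 (41.2) or mouse 5 (358). That in median log2 signal before normalization was 0.0031 on the probes detected on all 32 arrays. Leaving out single mice, it ran from 0.0061 (without mouse 8) to 0.389 (without mouse 5). The positions of mice 1 and 3 moved to 0.243 and 0.343 on 50 probes. Of 355 alternative values of the 15 called named probes, 226 kept the call, 129 lost it and none reversed. Of 445 values of the other 19, 22 gained a call and 4 reversed, all near 0: Sfrp4 (0.12 without mouse 1, range -1.07 to 0.12 over the mice left out), Zbtb18 (0.042 and 0.062 without mice 4 and 8, range -0.076 to 0.062) and Notum (-0.0086 without mouse 8, range -0.0086 to 0.82). The assay-normalized signal, the high-flag setting and the probes detected on all 16 iDC arrays moved the count for RSG-treated iDCs, with or without mouse 5, by no more than 1.5 times. Dim probes are the least precise.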
